A study of Bos taurus with 12 samples.

Results

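CD antigens are cell-surface molecules that were numbered as antibodies to leukocytes were compared, and many of them serve to tell one class of blood cell from another. The set described here holds the genes on the array whose symbol is CD followed by a number and, in some, by letters, without CD14, CD53 and CD74. It came to 48 of the 9155 genes that a probe set of the array named alone, and to 68 of the 24016 probe sets other than controls. Where a gene had several probe sets, as 15 members did, the one that varied most across the 12 arrays (by SD) stands for it. This choice does not use the week labels, but the SD takes in differences between weeks, so it can favour probe sets with larger ones. By the cells they are known from, 16 members are antigens of T and natural killer cells, 4 of B cells and 9 of myeloid and antigen-presenting cells. The class called broadly expressed took the 18 that were on none of these lists. Not all of it is carried by many cell types, since it holds CD52 of lymphocytes and CD34 of endothelial and progenitor cells. The label of surface antigen does not hold for 2 members. CD5L, counted with the myeloid antigens, is a secreted protein. CD2AP, given apart, shares the symbol pattern but is an adaptor protein inside the cell.

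The samples were papillae from the ventral sac of the rumen, taken from 4 Holstein dairy cows. The same cows were sampled on a high forage diet (week 0, the control) and then under a grain challenge, in weeks 1 and 3, so each week had 4 arrays. No sample here came from a cow kept on forage throughout, so diet and calendar week cannot be told apart. The labels give no age. Values are on a log2 scale with the 12-array median of each probe set at 0, so they show differences between arrays and hold no level, and no gene's level can be set against another's. Controls added at hybridization were higher on 3 arrays than on the others, with means of 0.48 to 0.72 against -0.32 to 0.05. These were week 0 and week 1 of cow 1 and week 0 of cow 2. In whole papillae, fewer cells of a type and less RNA per cell cannot be told apart.

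T cells recognise antigen with a receptor that signals through the CD3 complex, built from the chains CD3D, CD3E and CD3G and the zeta chain CD247, while B cells use CD79A for the same purpose. Many broadly expressed CD antigens set how a cell meets the immune system: CD46 and CD55 stop complement on the cell's own surface, and CD47 signals to macrophages not to engulf it. Rumen papillae are mostly stratified epithelium over a core of vessels and connective tissue, in which leukocytes are a minority.

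No CD antigen passed the test in any comparison of the weeks. The CD3 chains CD3G and CD3D stood furthest from 0 in week 1 against week 0, at 1.63 and 1.12. The other chains of the complex, CD3E and CD247, were at -0.46 and 0.02, and the T cell coreceptors CD4 and CD8A at 0.03 and 0.04. The surface proteins CD46, CD55 and CD47 had their lowest weekly means in week 1, with smaller differences of -0.29, -0.29 and -0.28. In the third week 17 of the 48 members (35.4%) were higher than on forage in all 4 cows, against 28.1% of all genes. Among the 17 were CD302, CD3D, CD93, CD69 and CD48. For most members that varied, though not for CD3G, CD46 and CD81, more of the variance lay between cows than between weeks. The median share over all genes that varied was also larger between cows. With more cows than weeks, a larger share between cows is expected even where cows do not differ.

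**Figure D1:**
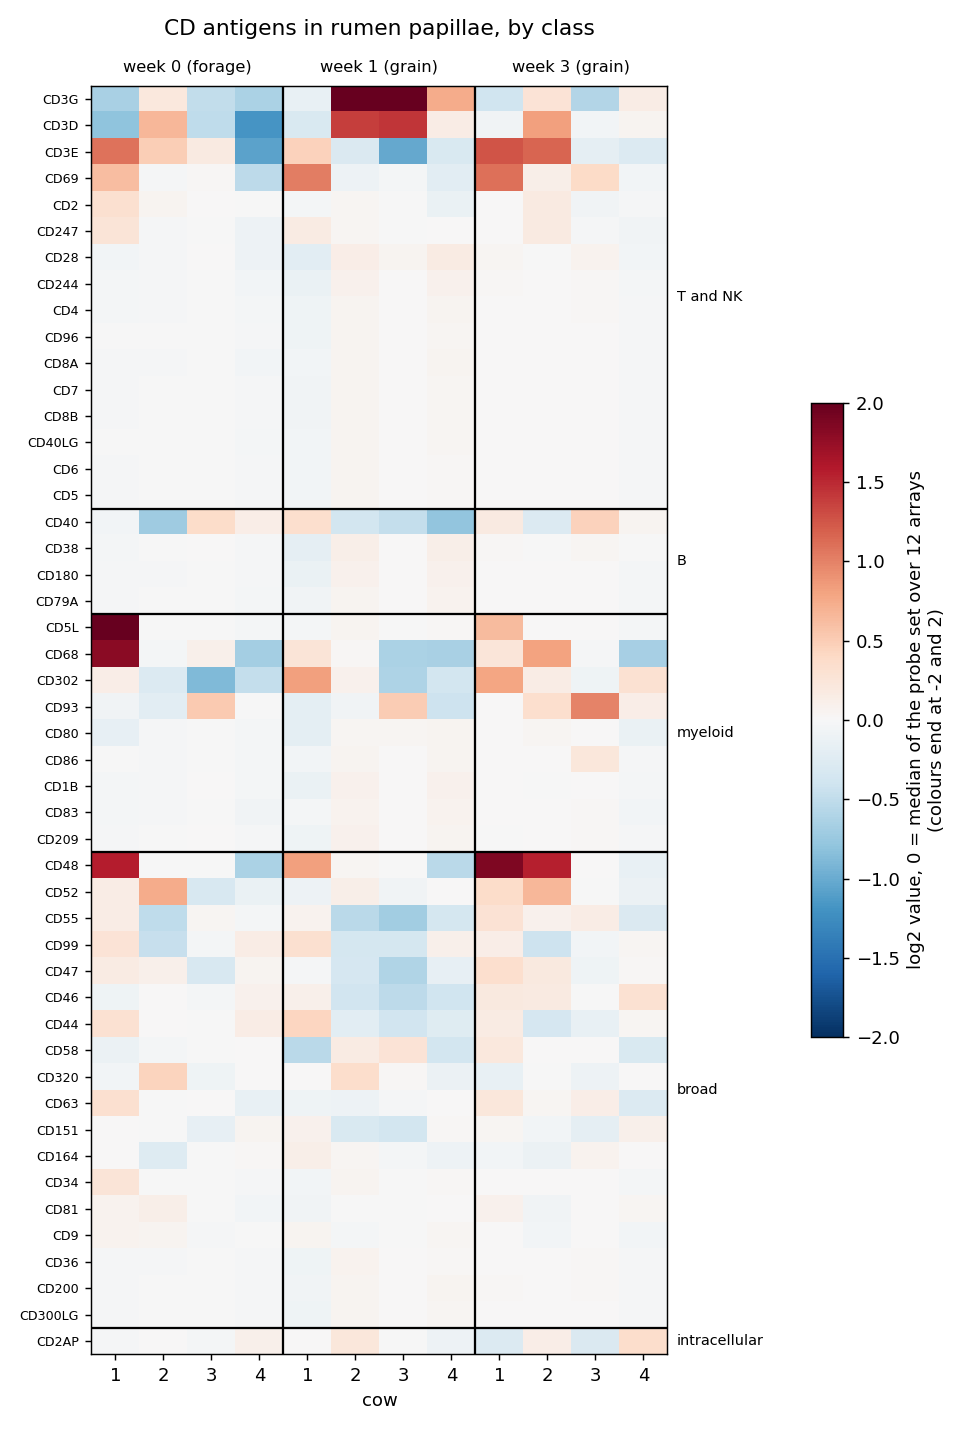
Log2 value of each of the 48 genes (rows, by class and then by falling SD) on each of the 12 arrays (columns, by week and cow), where 0 is the probe set's median. Colour is mostly held by CD3G, CD3D, CD3E and CD69 among the T cell antigens, CD40 among the B cell antigens, CD5L, CD68, CD302 and CD93 among the myeloid ones and CD48 among the broadly expressed ones, while the lower rows of each class are nearly blank.

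Many of the antigens that define lymphocytes varied very little. A gene was counted as flat where its value stayed within 0.1 of the array's own median over all probe sets on every one of the 12 arrays, a tolerance chosen after the values were seen. Of the 48 members 18 were flat, or 37.5%, against 19.2% of all 9155 genes. A flat record can come from a transcript near the floor of the array or from one held at an even level, and values without a level cannot tell these apart.

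Among the T and natural killer cell antigens 9 of 16 were flat. They included the coreceptors CD4, CD8A and CD8B, which bind MHC molecules, the scavenger-like receptors CD5 and CD6, CD7, CD40LG, which activates B cells, and the natural killer receptors CD96 and CD244. CD8A differed by 0.04 ± 0.03 (SE, n = 4 cows) between week 1 and week 0 and CD4 by 0.03 ± 0.03. Of the B cell antigens CD79A, at 0.03 ± 0.03, and CD180, a Toll-like receptor homologue, at 0.03 ± 0.04, were flat. The flat myeloid members were CD83, a marker of mature dendritic cells, at 0.06 ± 0.03 and higher in 4 of 4 cows, the lectin CD209 and the lipid-presenting CD1B. CD36, a fatty acid transporter, at 0.02 ± 0.03, CD9, a tetraspanin, at -0.01 ± 0.03, CD200 and CD300LG were the flat members of the broadly expressed class. Over the 3 comparisons the differences of the 18 flat genes ran from -0.04 to 0.06.

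The remaining 30 members had a median SD of 0.26 over the 12 arrays. In 27 of them more of the variance lay between cows than between weeks, and the median share between cows was 45.0% against 13.6% between weeks. Over the 7396 genes that were not flat these medians were 31.7% and 15.6%. The 3 exceptions were CD3G, CD46 and CD81. These are shares of the sum of squares, not adjusted for there being more cows than weeks. A larger share between cows is therefore expected even where cows do not differ. The count of 27 also has no count over all genes beside it, so it alone does not show a difference between cows.

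The first comparison, week 1 against week 0, concerns the first week of grain. None of the 48 members was called at an adjusted p under 0.05 (limma, adjusted over all 24016 probe sets; lowest 0.763), as was the case for 0% of all genes. At an unadjusted p under 0.05 stood 2 higher members, CD3G and CD3D, and 1 lower one, CD46. Of all genes 3.76% were higher and 2.85% lower at that level, and 2 and 1 of 48 are near those shares. With the cow as a block there were 0 calls as well (0.0109% of all genes). At that unadjusted level 3 were then higher, CD3G, CD3D and CD302, and 2 lower, CD47 and CD46. In the same fit 5.25% of all genes were higher and 4.99% lower. With arrays weighted by their fit, 20 members were called, together with 41.5% of all probe sets. Most of the 20 were flat genes, such as CD4, CD8A and CD79A. CD3G (limma, adjusted p = 0.0160) and CD46 were among the others. No member had weeks that did not overlap, in either direction, where 2.21% of all genes did so upward and 0.907% downward. Of the 48 members 28 were higher and 20 lower as deposited, but 18 were higher and 30 lower after quantile normalization, and 16 and 32 after centring of each array.

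CD3G, the gamma chain of the complex, gave these values. In cows 1, 2, 3 and 4 it was at -0.65, 0.20, -0.49 and -0.64 at week 0, -0.15, 2.03, 2.31 and 0.74 at week 1, and -0.39, 0.28, -0.58 and 0.15 at week 3. The highest arrays were those of cows 2, 3 and 4 at week 1, while week 1 of cow 1 lay among the values of the other weeks. The mean at week 1 was 1.23 ± 1.15 (SD, n = 4) against -0.39 ± 0.41 at week 0. The week 1 minus week 0 difference was 1.63 ± 0.49 (SE, n = 4 cows), a size of 3.09-fold, with a higher value in 4 of 4 cows (limma, adjusted p = 0.763).

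CD3D, the delta chain, gave -0.81, 0.67, -0.51 and -1.18 at week 0, -0.31, 1.38, 1.43 and 0.15 at week 1, and -0.07, 0.82, -0.05 and 0.05 at week 3. Cows 2 and 3 were again the highest at week 1, and the weeks overlapped. Its difference between weeks 1 and 0 was 1.12 ± 0.48, with a higher value in 4 of 4 cows (limma, adjusted p = 0.763). The other probe set of CD3D gave 0.74 for the same comparison.

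CD3E, the epsilon chain, which pairs with both of the others, did not share this pattern. It gave 1.08, 0.49, 0.17 and -1.07 at week 0, 0.45, -0.29, -1.02 and -0.31 at week 1, and 1.26, 1.17, -0.17 and -0.28 at week 3. Cows 1, 2 and 3 had their lowest value at week 1, and cow 4 had its lowest at week 0. Week 1 minus week 0 was -0.46 ± 0.52, with a lower value in 3 of 4 cows. In cow 3 week 1 minus week 0 was 2.80 for CD3G and -1.20 for CD3E. Whether the chains differ from each other was not tested. CD247 ranged only from -0.11 to 0.26 over the 12 arrays and differed by 0.02 ± 0.08.

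**Figure D2:**
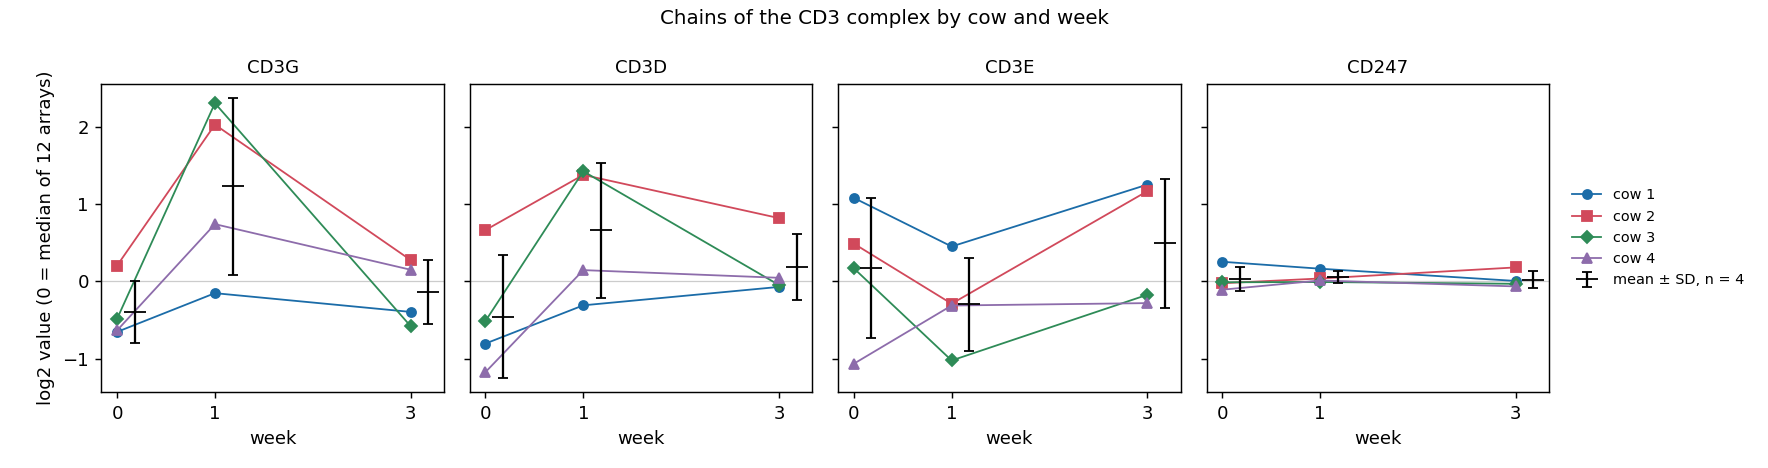
Log2 values of the CD3 chains CD3G, CD3D, CD3E and CD247 (vertical axis, common to the panels, 0 = median of the 12 arrays) by week (horizontal axis), with a line for each cow and the mean ± SD of 4 cows beside it. CD3G peaks at week 1 in all 4 cows and CD3D in cows 2, 3 and 4. CD3E has its lowest value at week 1 in cows 1, 2 and 3, and CD247 stays near 0.

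Other genes of T and natural killer cells, listed without CD symbols, had 9 measured members with a median difference of 0.03 between weeks 1 and 0, where the median of all genes was 0.02. Of the 9, 8 were higher and 1, LAT, was lower, none was called and none had an unadjusted p under 0.05. LAT, an adaptor below the T cell receptor, was at -0.06 ± 0.05 and GZMB, a protease of cytotoxic cells, at 0.05 ± 0.06. The mean of the list per array ran from -0.11 to 0.01 at week 0, from -0.04 to 0.07 at week 1 and from -0.08 to 0.20 at week 3, and NKG7 and PRF1 were flat. The class of 16 T and natural killer cell antigens as a whole had a median of 0.02 between these weeks, with 14 higher, but 7 higher and 9 lower after quantile normalization or after centring of each array. CD2, an adhesion receptor of T cells, was at -0.12 ± 0.08 and lower in 4 of 4 cows, with its other 2 probe sets at 0.00 and 0.02.

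In the broadly expressed class 14 of 18 antigens had lower means in week 1 than on forage (median -0.07), while 3357 of the 9155 genes were lower. The count was 16 after quantile normalization and 17 after centring of each array. It turned without the 3 arrays of high hybridization controls, to 7 lower and 11 higher with a median of 0.02, and to 9 and 9 with a median of -0.00 when the cow was also a block. CD46, which helps factor I to inactivate complement, was the member with the smallest p of the class. It gave -0.08, 0.00, -0.03 and 0.08 at week 0, 0.11, -0.38, -0.52 and -0.40 at week 1, and 0.20, 0.19, -0.00 and 0.30 at week 3. Cows 2, 3 and 4 at week 1 were below all other arrays, and cow 1 at week 1 was above all of week 0. The difference of week 1 from week 0 was -0.29 ± 0.12 (SE, n = 4 cows), with a lower value in 3 of 4 cows (limma, adjusted p = 0.763). The other probe set of CD46 gave -0.02.

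CD55, the decay accelerating factor, which breaks up complement convertases, gave 0.16, -0.51, 0.04 and -0.04 at week 0, 0.06, -0.54, -0.70 and -0.35 at week 1, and 0.28, 0.08, 0.15 and -0.29 at week 3. All 4 cows had their lowest value at week 1, in cow 2 by only 0.03 below week 0. Its week 1 value differed from week 0 by -0.29 ± 0.19. CD47, the ligand of the macrophage receptor SIRPA, gave 0.16, 0.10, -0.32 and 0.05 at week 0, -0.03, -0.33, -0.60 and -0.17 at week 1, and 0.34, 0.19, -0.09 and 0.03 at week 3. Its lowest value was likewise at week 1 in all 4 cows, and the difference was -0.28 ± 0.14 (limma, adjusted p = 0.763). Blocked by cow, the standard error of CD47 was 0.06 (limma, adjusted p = 0.302). The weeks overlapped in both genes. The cows stood at different heights, and the change of CD55 from week 0 to week 1 ran from -0.74 in cow 3 to -0.03 in cow 2.

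CD44, the hyaluronan receptor of epithelium and leukocytes, gave 0.30, 0.00, -0.00 and 0.15 at week 0 and 0.43, -0.21, -0.38 and -0.25 at week 1. It was lower at week 1 in 3 of 4 cows, by -0.21 ± 0.17 on average, and at week 3 it was at -0.18 ± 0.17 against week 0 and lower in 4 of 4 cows. The tetraspanins CD151, CD63 and CD81, which organise other proteins in the membrane, were at -0.12 ± 0.11, -0.10 ± 0.11 and -0.05 ± 0.04 at week 1. Beside these values, 7 of 8 keratinocyte genes were lower at week 1, with a median of -0.32, and KRT5 and PKP1 were at -0.33 ± 0.11 and -0.34 ± 0.11. The mean of that list per array ran from 0.11 to 0.31 at week 0 and from -0.23 to 0.22 at week 1, and its part in the values of CD46, CD55, CD47 and CD44 was not tested.

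**Figure D3:**
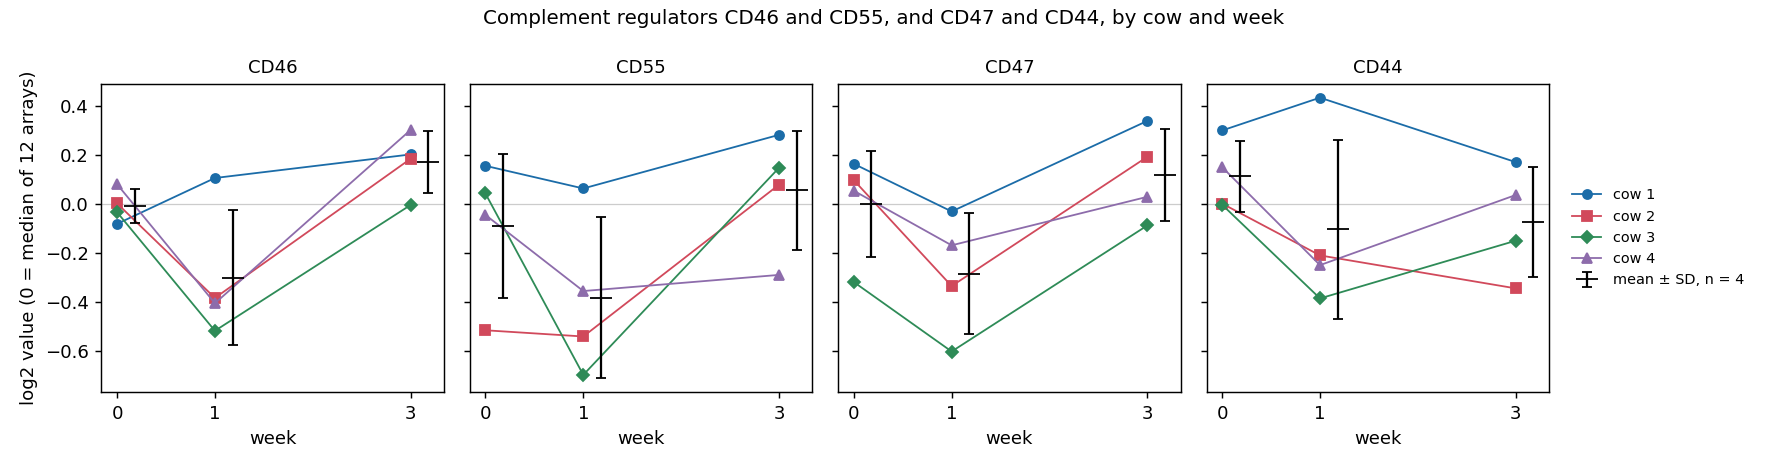
Log2 values of CD46, CD55, CD47 and CD44 (vertical axis, common to the panels, 0 = median of the 12 arrays) by week, with a line for each cow and the mean ± SD of 4 cows. CD55 and CD47 have their lowest point at week 1 in all 4 cows, and CD46 in cows 2, 3 and 4.

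The next comparison, week 3 against week 0, concerns longer feeding of grain. Again none of the 48 members was called (limma, lowest adjusted p = 0.901), as for 0% of all genes. At an unadjusted p under 0.05 there were 0 members in either direction, where 3.13% of all genes were higher and 1.89% lower, and with the cow as a block there were 3, all higher, CD302, CD93 and CD69, with 0 calls. In that blocked fit 5.07% of all genes were higher and 2.95% lower at the same level, so 3 of 48 is near the background. The weeks overlapped for all 48 members, where 2.95% of all genes lay above and 1.1% below without overlap. Higher in 4 of 4 cows were 17 members or 35.4%, against 28.1% of all genes, and 8 of the 17 were flat genes that follow the array medians. After quantile normalization 21 of the 48 were higher and 27 lower, and after centring 25 and 23, against 35 and 13 as deposited, so a count of directions over the whole set depends on the scaling.

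CD302, a C-type lectin of macrophages and dendritic cells, had the smallest p of this comparison. It gave 0.13, -0.27, -0.88 and -0.48 at week 0, 0.82, 0.08, -0.62 and -0.36 at week 1, and 0.79, 0.15, -0.08 and 0.31 at week 3. Each cow was lowest at week 0, and cow 1 was above the others at each week. Week 1 minus week 0 was 0.36 ± 0.32. The difference of week 3 from week 0 was 0.67 ± 0.32 (SE, n = 4 cows), with a higher value by 0.42 to 0.80 in 4 of 4 cows (limma, adjusted p = 0.901). Blocked by cow, its standard error was 0.12 (limma, adjusted p = 0.255).

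CD93, a receptor of endothelial and myeloid cells, gave -0.06, -0.21, 0.52 and -0.01 at week 0, -0.20, -0.06, 0.51 and -0.41 at week 1, and 0.01, 0.34, 1.00 and 0.13 at week 3. Cow 3 was the highest at every week, and each cow was highest at week 3. The difference of week 3 from week 0 was 0.31 ± 0.26, with a higher value in 4 of 4 cows. Endothelial genes, 8 measured, had a median of 0.02 in this comparison with 5 higher, and the 2 with the smallest p, TEK and ENG, were at -0.35 ± 0.20 and 0.28 ± 0.22. The mean of that list ran from -0.09 to 0.12 at week 0 and from -0.17 to 0.11 at week 3. CD34, which marks endothelial and progenitor cells, was at -0.06 ± 0.06, with 0.25 in week 0 of cow 1 and -0.02 to -0.00 in the other cows at that week.

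CD69, which appears early on activated lymphocytes, gave 0.62, -0.02, 0.02 and -0.52 at week 0, 1.02, -0.10, -0.03 and -0.22 at week 1, and 1.10, 0.11, 0.39 and -0.05 at week 3. Cow 1 was above the other cows at every week, and the share of variance between cows was 86.1%. The difference of week 3 from week 0 was 0.36 ± 0.34, with a higher value by 0.13 to 0.48 in 4 of 4 cows (limma, adjusted p = 0.901).

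CD48, a ligand of the lymphocyte receptor CD244, gave 1.58, -0.01, -0.01 and -0.64 at week 0, 0.82, 0.04, -0.01 and -0.53 at week 1, and 1.87, 1.55, 0.01 and -0.14 at week 3. Cow 1 was high at each week, cow 2 only at week 3, and cow 3 stayed close to 0. The difference of week 3 from week 0 was 0.59 ± 0.57, from 0.01 in cow 3 to 1.56 in cow 2. CD52, a small glycoprotein of lymphocytes, was at 0.11 ± 0.23 and higher in 3 of 4 cows. Beside these values, 7 of 8 fibroblast and matrix genes had higher means in week 3 than on forage (median 0.55), and their mean per array ran from -0.46 to 0.06 at week 0 and from 0.09 to 0.34 at week 3; their part was not tested.

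**Figure D4:**
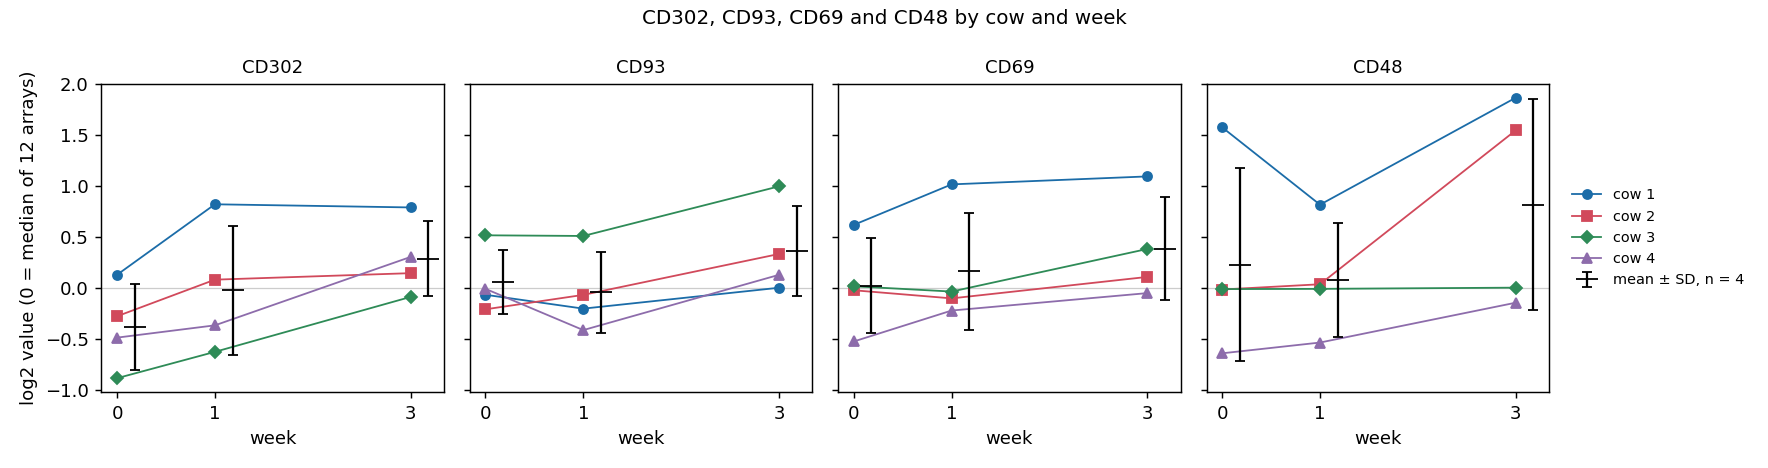
Log2 values of CD302, CD93, CD69 and CD48 (vertical axis, common to the panels, 0 = median of the 12 arrays) by week, with a line for each cow and the mean ± SD of 4 cows. Each cow is higher at week 3 than at week 0 in every panel, by as little as 0.01 for CD48 in cow 3, and the weeks overlap.

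Lower in 4 of 4 cows at week 3 than at week 0 were CD44 and CD320, the receptor that takes up vitamin B12 bound to transcobalamin. CD320 was at -0.14 ± 0.13, and its other 2 probe sets were at -0.04 and 0.01. The costimulatory ligand CD86 was at 0.07 ± 0.05, of which cow 3 alone gave 0.22, and CD80 was at 0.03 ± 0.06. Of the CD3 chains CD3D was at 0.65 ± 0.48 and higher in 4 of 4 cows. CD3E was at 0.32 ± 0.52 and CD3G at 0.26 ± 0.49, each lower in cow 3. CD46 was at 0.18 ± 0.12 and higher in 4 of 4 cows, CD55 at 0.14 ± 0.19 and CD47 at 0.12 ± 0.14. CD2AP was at -0.03 ± 0.14, and its 4 probe sets differed in sign. The costimulator CD28, CD58, which binds CD2, and the sialomucin CD164 were at 0.05 ± 0.07, 0.02 ± 0.17 and 0.03 ± 0.07.

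The comparison of week 3 with week 1 asks directly whether the later values differed from the earlier ones. It shares its arrays with the other comparisons, so its values are not separate evidence of them. None of the 48 members was called (limma, lowest adjusted p = 0.576), as for 0% of all genes, and the F test over the 3 weeks called none either (lowest adjusted p = 0.764; 0% of all genes). At an unadjusted p under 0.05 were 3 higher members, CD46, CD47 and CD55, and 1 lower one, CD3G, where 3.68% of all genes were higher and 3.16% lower. With the cow as a block these counts were 8 and 1, with 0 calls, where 6.39% of all genes were higher and 4.21% lower in the same fit. The 8 of 48 lie above that share, with 4 in the broadly expressed class, 2 myeloid and 2 of T and natural killer cells. Whether this excess is more than chance was not tested. No member's weeks were without overlap, against 1.55% of all genes upward and 1.69% downward. As deposited 19 members were higher and 29 lower, against 32 and 16 after quantile normalization and 34 and 14 after centring.

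CD46 was at 0.47 ± 0.12 (SE, n = 4 cows) between weeks 3 and 1, a size of 1.39-fold, with a higher value by 0.10 to 0.71 in 4 of 4 cows (limma, adjusted p = 0.576). With week 1 of cow 1 left out, the difference was 0.61. CD46 was then the 1 member called (limma, adjusted p = 0.0213; 0.0160 to 1.00 over the alternatives), among 0.158% of all probe sets. Cow 1 was the only cow with CD46 higher in week 1 than in week 0, by 0.19. Its week 1 array is also 1 of the 3 with high hybridization controls. Leaving out all 3 gave 0.61 as well, but 0 members were called, against 0.05% of all probe sets. The other probe set of CD46 was at 0.24. CD55 was at 0.44 ± 0.19 and CD47 at 0.40 ± 0.14, each with a higher value in 4 of 4 cows. CD3G was at -1.37 ± 0.49 and lower at week 3 in 4 of 4 cows, with differences from -2.89 in cow 3 to -0.24 in cow 1. CD3E was at 0.79 ± 0.52 and higher in 4 of 4 cows, by 1.46 in cow 2 and 0.03 in cow 4. CD93 was at 0.41 ± 0.26 and CD48 at 0.74 ± 0.57, both higher in 4 of 4 cows.

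CD40, the receptor of B cells and antigen-presenting cells for CD40LG, was at 0.42 ± 0.28 between weeks 3 and 1 and higher in 3 of 4 cows. It gave 0.34, -0.36, -0.48 and -0.79 at week 1 and 0.18, -0.28, 0.46 and 0.05 at week 3. Cows 3 and 4 carried the difference. The other probe set of CD40 was at 0.06, and between weeks 1 and 0 the 2 probe sets had opposite signs, at -0.26 and 0.33. CD38, an enzyme on plasma cells and activated lymphocytes, was at -0.00 ± 0.06. B and plasma cell genes without CD symbols, 5 measured, had a median of 0.07 with 3 higher, and JCHAIN, which joins the units of secreted IgA and IgM, was at 1.18 ± 0.73.

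**Figure D5:**
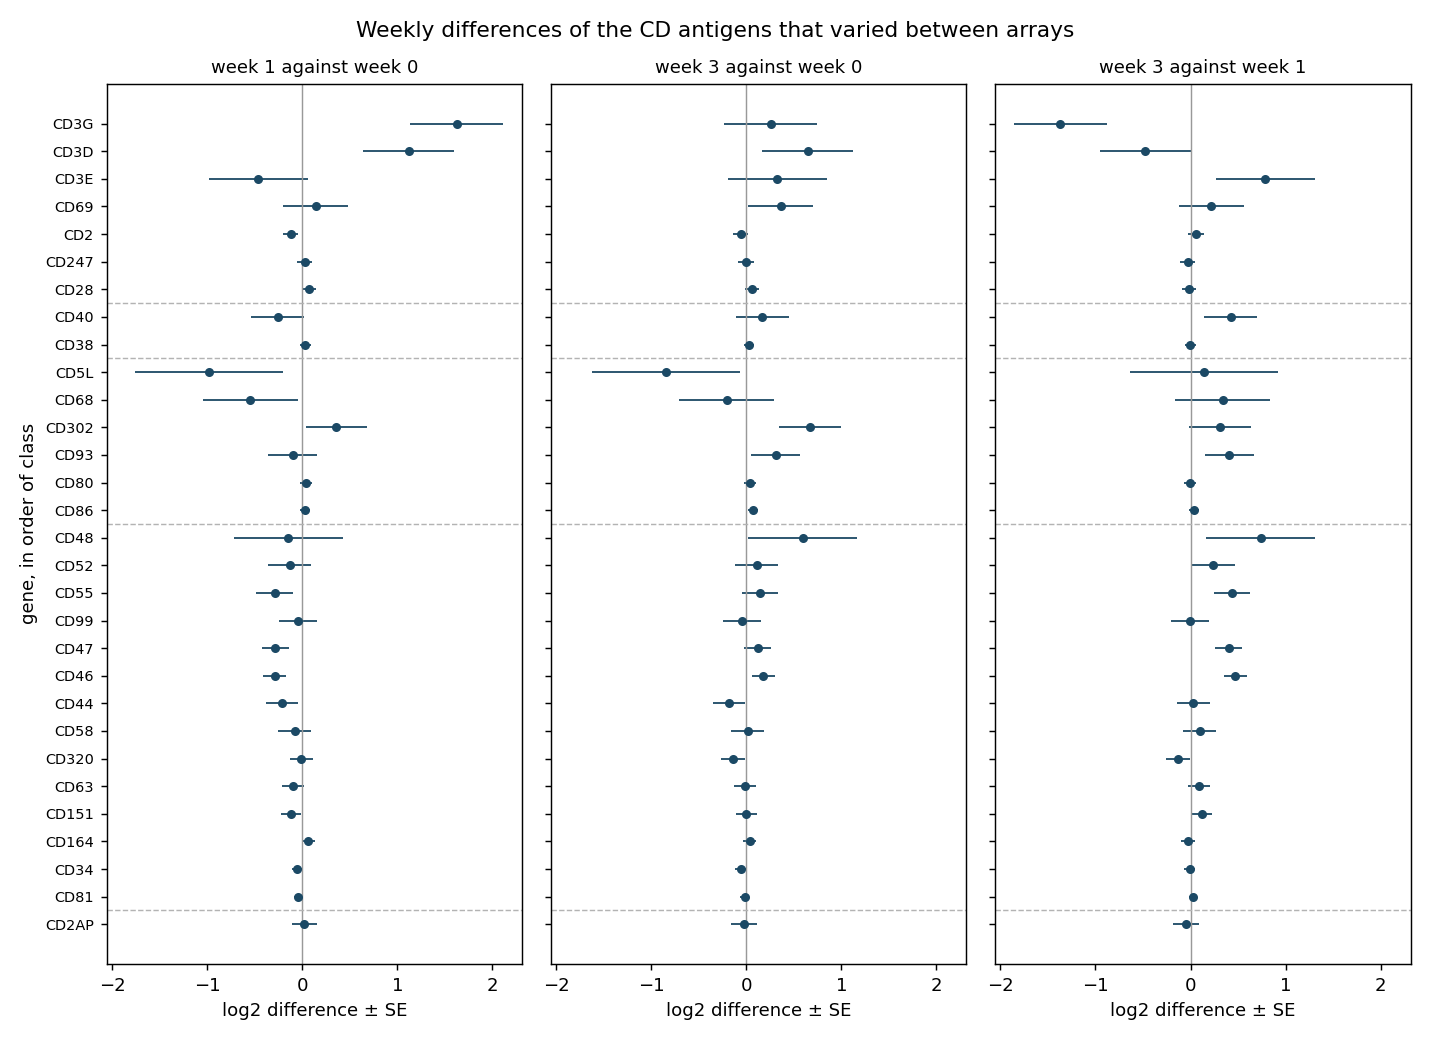
Log2 difference (horizontal axis, common to the panels) with its standard error for the 30 CD antigens that were not flat, in order of class (dashed lines), for week 1 against week 0, week 3 against week 0 and week 3 against week 1. CD3G and CD3D lie furthest above 0 in the first panel, CD5L has the widest error in all 3, and CD46, CD47 and CD55 are near -0.3 in the first panel and near 0.4 in the last.

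Among the myeloid antigens CD68 differed mostly between cows and CD5L was high on 1 array. CD68, a glycoprotein of macrophage lysosomes, gave 1.80, -0.03, 0.11 and -0.68 at week 0, 0.26, 0.02, -0.63 and -0.65 at week 1, and 0.25, 0.80, -0.02 and -0.67 at week 3. Cow 4 was the lowest at each week. Its difference between weeks 1 and 0 was -0.55 ± 0.50 and between weeks 3 and 0 -0.21 ± 0.50. Without week 0 of cow 1 these were -0.05 and 0.29, in fits that kept weeks 1 and 3 of cow 1. Within cows 1, 2, 3 and 4, week 1 minus week 0 was -1.54, 0.06, -0.74 and 0.03 for CD68. For week 3 minus week 0 its values were -1.55, 0.83, -0.13 and 0.01. CD5L, a protein that macrophages secrete, was at 4.03 in week 0 of cow 1 and at 0.63 in week 3 of cow 1, and between -0.04 and 0.05 on the other 10 arrays. Its mean differences of -0.99 ± 0.78 and -0.84 ± 0.78 from week 0 rest on 1 array, which is also 1 of the 3 with high hybridization controls. Other myeloid genes, 11 measured and none flat, had a median of -0.14 between weeks 1 and 0 with 8 lower, of 0.03 between weeks 3 and 0, and of 0.10 between weeks 3 and 1. The mean of that list ran from -0.72 to 0.87 at week 0, from -0.47 to 0.22 at week 1 and from -0.46 to 0.62 at week 3, with cow 4 lowest at each week, and its part in the values of CD68, CD5L, CD48 and CD302 was not tested.

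Across the 30 members that varied, cow 1 had the highest mean over its 3 arrays in 18 and cow 4 the lowest in 12. The same counts were not made over all genes, so these are not read as a trait of the CD antigens. The means of CD48 in cows 1 to 4 were 1.42, 0.53, -0.00 and -0.44, those of CD68 were 0.77, 0.26, -0.18 and -0.67, and those of CD3E were 0.93, 0.46, -0.34 and -0.55. In these 3 genes the order of the cows was the same. CD3D ran otherwise, with -0.39, 0.96, 0.29 and -0.33, and CD93 was highest in cow 3 at 0.68. CD99, an adhesion molecule of leukocytes and endothelium, was the member most fully ordered by cow, with 89.1% of its variance between cows and 0.743% between weeks. The cow means rest on 3 arrays each, 2 of them with high hybridization controls in cow 1.

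CD antigens that carry another symbol were compared in the same way. Of 43 such genes listed and 36 measured, 9 were flat and none was called in any comparison. Their median was 0.02 between weeks 1 and 0, 0.04 between weeks 3 and 0 and 0.05 between weeks 3 and 1. ICAM1, which binds leukocyte integrins, was at 0.61 ± 0.17 and 0.48 ± 0.17 in weeks 1 and 3 against week 0, higher in 4 of 4 cows each time. PECAM1, an adhesion molecule of endothelium, was at -0.30 ± 0.12 at week 1, the integrin ITGB4 at -0.53 ± 0.16 at week 3, and EPCAM and the macrophage growth factor receptor CSF1R at 0.25 ± 0.09 and 0.67 ± 0.24 between weeks 3 and 1.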

How the data were processed

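The authors deposited log2 values for each probe set, made with GCRMA per the submitters' processing notes (version not given). The RNA was labelled with biotin as cRNA, per the labels' protocols. The log base was taken as 2, since the widest range in a probe set, 11.2, would be a 74399-fold change as a natural log. Every probe set had a median of 0, so filters on level were not possible.

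All 24016 probe sets other than the 112 controls were fitted with limma 3.58.1 in R 4.3.3 (lmFit, eBayes, two-sided), with weeks as groups and the cow left out of the model, and Benjamini-Hochberg adjustment over all of them. The number of arrays, 12, limits the precision. Standard errors come from this fit unless given as blocked by cow, so they take in the differences between cows. Same-numbered arrays came from the same cow, as the titles say, and deviated together (correlations of 0.321 to 0.692 within a cow, -0.443 to 0.0627 between cows). The 16 fits without 1 array or 1 cow were among 25 alternatives. Gene names came from the array's probe annotation, and all 48 members were found in the ARS-UCD2.0 gene table, used for names alone. The members, classes and lists were chosen with earlier results of these data known. Members described were the 8 with the smallest p in each comparison, the 3 with the smallest F test p in each class, and a set of well-known antigens. Other members named for a pattern over cows or arrays were chosen after their values were seen. The limma fit was tested on simulated data with shifts added in week 1. Those data were drawn independently for each array, without the correlation within a cow, and the other steps were not tested in this way. The alternatives were the cow as a block, quantile normalization, centring of arrays, a filter on the SD, other ways to choose a gene's probe set, array weights, and leaving out arrays or cows.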

Additional observations from a re-analysis of the deposited data

Results flagged for a closer look

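In 78 groups of 4 arrays, the 3 weeks of the 26 members described, 8 had 1 cow far from the other 3 (the gap to the nearest cow divided by the range of the group was above Dixon's critical value for 4 samples). Chance flags about 1 in 20 groups. CD5L stood at 4.03 in week 0 of cow 1 against -0.04 to -0.00 in the other cows, and at 0.63 in week 3 of the same cow against -0.03 to 0.01. CD34 stood at 0.25 in week 0 of cow 1 against -0.02 to -0.00, and CD69 at 1.02 in week 1 of cow 1 against -0.22 to -0.03. CD3D stood at 0.82 in week 3 of cow 2 against -0.07 to 0.05. CD86 stood at 0.22 in week 3 of cow 3 against -0.03 to 0.01. In cow 4 at week 3, CD34 was at -0.04 against 0.00 to 0.01 and CD79A at -0.03 against 0.00 to 0.01, gaps of a few hundredths in groups with almost no range. Of the 8, 4 were in cow 1, and 2 of these, at week 0, were on an array with high hybridization controls, as was the 1 at week 1.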

How the results depend on the processing

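With the cow as a block (replicate block), 0 members were called in each comparison, as without it. Array weights called 20 of the 48 members in week 1 against week 0, where they called 41.5% of all probe sets, 1 in week 3 against week 1 (CD46; 0.404% of all probe sets) and 11 by the F test over the 3 weeks (25.4%), and the cause was not tested. Leaving out 1 array or cow at a time moved the median over 0.00240 to 0.04, 0.01 to 0.03 and -0.03 to 0.02 in the 3 comparisons. Fits without 1 array or 1 cow called 0 members in both comparisons with week 0, and 0 to 1 in week 3 against week 1 and in the F test, where the 1 appeared without week 1 of cow 1 (0.158% and 0.117% of all probe sets). The median over the members changed sign under 4, 1 and 8 of the alternatives in the 3 comparisons. It was -0.10, 0.054 and 0.12 in week 1 against 0, week 3 against 0 and week 3 against 1 over the 25 members left without the 40% of probe sets of lowest SD, against 0.02, 0.02 and -0.00 over all 48. In week 3 against week 0 it was -0.000982 after quantile normalization, 0.00154 after centring of arrays and 0.00526 in the fit that blocks on cow and omits the 3 arrays whose hybridization controls were highest. Of 1923 values of the 26 members described under the 25 alternatives 129 had the other sign, and none of these was called. CD3G and CD3D stayed higher and CD46, CD47 and CD55 lower in week 1 against week 0, and CD302, CD93, CD69 and CD48 higher in week 3 against week 0, under all 25, CD46 with a value as small as -0.02 from its other probe set. Values without a level cannot show which members lie near the array's floor.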
